A study of Mus musculus with 8 samples.

Results

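The 4 genes described here encode the enzymes that take heme apart: the heme oxygenases Hmox1 and Hmox2 and the biliverdin reductases Blvra and Blvrb. They were chosen by gene symbol as the heme breakdown enzymes and are 4 of the 19417 entries of an RNA sequencing table. The table covers primary cortical neuron cultures from C57BL/6 mice, which carried no genetic change named in the labels. The cultures received the vehicle DMSO, 4-OI at 10 µM, hemin at 50 µM, or hemin at 50 µM with 4-OI at 10 µM, each for 24 h and with 2 libraries per group, 8 in all. Hemin is the oxidised, iron-containing form of heme. 4-OI is 4-octyl itaconate, a cell-permeable itaconate ester used to activate the transcription factor NRF2. The age field of the labels repeats the treatment time of 24 h, and neither the age of the mice nor the days in culture are stated there. Separate cultures are not named for the 2 libraries of a group, and the p-values therefore speak only to the spread among these libraries, which may be technical.

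Heme oxygenase opens the heme ring and releases iron, carbon monoxide and the green pigment biliverdin, drawing its electrons from cytochrome P450 reductase. Hmox1 is the inducible enzyme, held down by the heme-sensing repressor BACH1 and switched on through NRF2 and small MAF proteins at antioxidant response elements, whereas Hmox2 is the constitutive enzyme and the main heme oxygenase of neurons. Biliverdin reductase then turns biliverdin into bilirubin, an antioxidant. Blvra encodes the reductase that acts on the usual biliverdin isomer of adult tissue, and Blvrb a broad flavin reductase that acts on other isomers.

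Promoter sequences for 3 of the 4 genes, Hmox2, Blvra and Blvrb, were matched by symbol in RefSeq (build GRCm38.p6), and no entry matched Hmox1. The windows of the reductases are shown because the responses to hemin of these genes differed in size and their upstream sequences hold different motifs. Both lie on the plus strand and read 5′ to 3′, Blvra at chr2:127070407-127070628 and Blvrb at chr7:27447728-27447977. Capitals in Blvra mark a match to the core of the antioxidant response element, and capitals in Blvrb mark GC boxes read on the opposite strand.
Blvra: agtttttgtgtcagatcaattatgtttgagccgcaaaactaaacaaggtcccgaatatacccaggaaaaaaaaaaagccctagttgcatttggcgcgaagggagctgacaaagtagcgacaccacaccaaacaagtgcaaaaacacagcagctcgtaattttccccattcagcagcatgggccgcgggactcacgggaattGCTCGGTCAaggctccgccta
Blvrb: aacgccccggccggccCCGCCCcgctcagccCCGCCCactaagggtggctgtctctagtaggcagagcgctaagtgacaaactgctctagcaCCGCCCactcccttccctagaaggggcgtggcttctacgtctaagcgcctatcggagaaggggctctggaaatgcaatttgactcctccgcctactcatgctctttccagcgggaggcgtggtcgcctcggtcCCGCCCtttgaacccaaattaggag
The motif searched as the antioxidant response element core was TGACNNNGC on both strands. It was found once in the 250-base Blvra window, as GCTCGGTCA beginning 21 bases before the gene's first base. Of that window, the 222 bases printed lie upstream of the RefSeq gene record and the rest inside it. Of all promoter windows, 10.2% of 32851 of that length held the motif. It did not occur in the Blvrb or Hmox2 windows. The GC box, GGGCGG on either strand, occurred 4 times upstream of the first Blvrb start, at 234, 219, 158 and 25 bases before the gene. Of all windows, 32.7% held it. The window of the other Blvrb start, at chr7:27452168-27452417, held 0, and the Hmox2 window at chr16:4756696-4756945 held 2. The heat shock motif GAANNTTC had 2 matches in each of 2 overlapping Hmox2 windows and was found in 6.69% of all windows. These matches describe letters only.

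The deposited values are FPKM, fragments normalised for transcript length and sequencing depth, and the table keeps no read counts. Steps between low values gave an estimated depth of 8.9 to 10.4 M fragments per library, so a value of a few FPKM rested on few fragments. For Hmox1 this came to an estimated 278 to 483 fragments per library without hemin and 10725 to 22882 with it. Estimates were 198 to 587 for Hmox2 and 53 to 140 for Blvra. For Blvrb they were 32 to 45 without hemin, a counting error of 14.9% to 17.7% of the value, and 161 to 353 with it.

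Several features of the libraries touch all 4 genes. The 2 hemin libraries differed from each other far more than those of any other group: the variance of a pair was a median of 17.8 times the estimated counting noise with hemin and 1.87 to 3.05 times in the other groups. The bracketed number in the title is 3 for the second library of every group, but the description of the second DMSO library carries the code of the first up to its last element. Whether both DMSO libraries came from the same culture is not given. Summed FPKM of 10 neuron markers was 2346 to 2519 in the 4 libraries without hemin and 657.3 to 902.4 in the 4 with it. Most of that difference was Tubb3, at 1121 to 1179 FPKM without hemin and 63.6 to 80.3 with it. With hemin against DMSO 7 of the 10 fell, where 22.6% of all genes did. Snap25 (105 to 120 without hemin, 75.9 to 116 with it) and Gad2 (24.6 to 27.4 and 19.8 to 31.1) overlapped. The sum of 9 astrocyte markers was 162.7 to 169.9 without hemin, 876.3 and 389.8 with hemin, and 357.4 and 363.2 with hemin plus 4-OI. That of 12 microglia and macrophage markers was 81.2 to 123.7 without hemin, 548.3 and 174.8 with hemin, and 179 and 178.5 with both. No marker of these 3 lists was at 0 in any library, although the microglial genes Tmem119 and P2ry12 reached at most 1.30 and 0.61 FPKM. Fibroblast marker sums were 7.17 to 8.85 without hemin and 20.4 to 41.5 with it, and oligodendrocyte sums 13.3 to 17.3 and 19.6 to 36.8. Endothelial sums were 0.85 to 1.13 without hemin, 8.72 and 14.4 with hemin, and 9.77 and 10.3 with both, while the hemoglobin gene Hbb-b1 and Alas2 of red cell precursors were at 0 throughout. Most of the endothelial sum with hemin was Pecam1, at 6.61 to 10.34 FPKM in the hemin-treated libraries, followed by Tek at up to 2.08 FPKM. The endothelial genes Cldn5 and Cdh5 reached at most 0.62 and 0.52 FPKM in any library. Fewer cells of a type and less RNA per cell cannot be told apart in such bulk samples, and the part of these shifts in the results below was not tested.

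Hmox1 (Entrez gene 15368) rose with hemin to among the most abundant transcripts of the cultures. It measured 18.82 and 20.01 FPKM with DMSO, 28.7 and 35.1 FPKM with 4-OI, 1564 and 755 FPKM with hemin, and 807 and 802 FPKM with hemin plus 4-OI. The 4 hemin-treated libraries stood far above the other 4, the first hemin library was the highest, and the second lay just under those that also received 4-OI. By FPKM rank within a library Hmox1 stood at 4047 and 3846 in the DMSO libraries and at 2691 and 2172 in those of 4-OI. It reached ranks 16 and 43 under hemin and 46 and 49 under both compounds. The order of group means was hemin, hemin plus 4-OI, 4-OI and DMSO, with overlap only between the libraries of the first pair.

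On the log2(FPKM + 1) scale, Hmox1 rose by 5.74 ± 0.28 (standard error, 95% interval 5.10 to 6.38) with hemin against DMSO, a 53.3-fold change (limma, adjusted p = 9.41e-06). This was the 5th largest rise among the 13746 genes tested. In hemin plus 4-OI against 4-OI, a comparison with other libraries but the same pooled spread, it rose by 4.62 ± 0.28, or 24.6-fold (adjusted p = 1.69e-05), the 9th largest rise. Leaving out each library in turn gave 5.21 to 6.26 and 4.48 to 4.76.

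**Figure D1:**
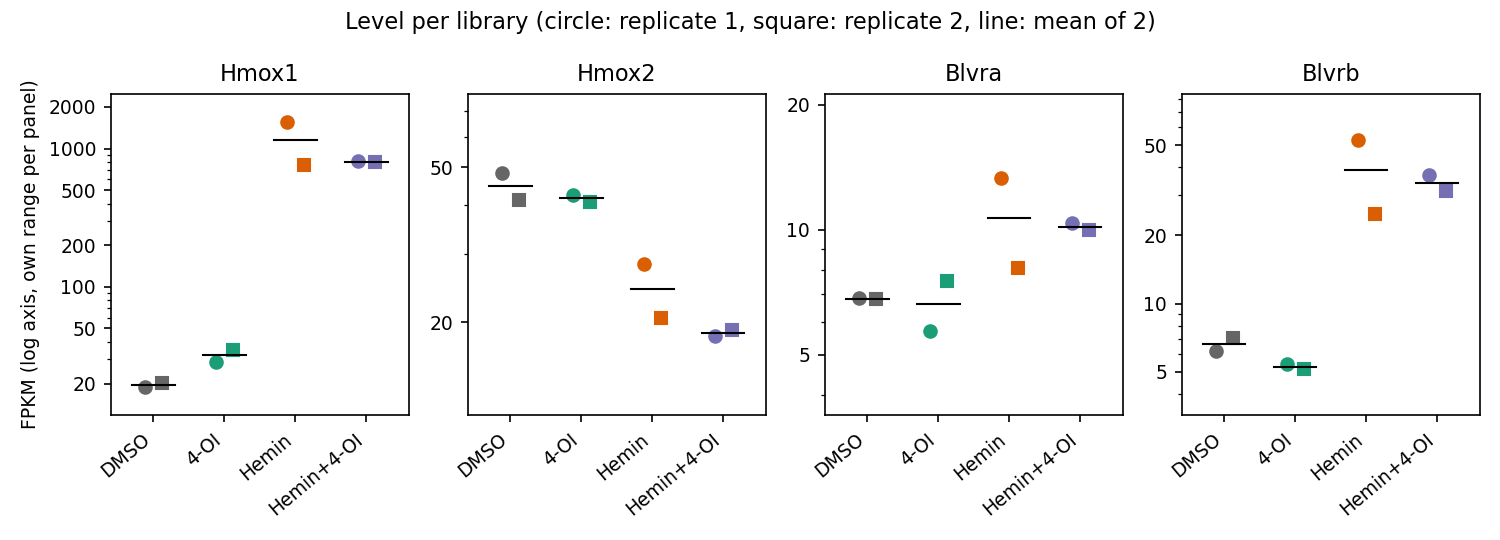
FPKM of Hmox1, Hmox2, Blvra and Blvrb in each of the 8 libraries, 1 point per library and a line at each group mean, on log axes that differ between panels. Hmox1 runs from 18.8 to 1564 FPKM and Blvrb from 5.14 to 52.7 FPKM with every hemin-treated library above every other, Hmox2 lies lower in all 4 hemin-treated libraries, and Blvra spans only 5.72 to 13.3 FPKM.

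Hmox2 (Entrez gene 15369), the constitutive enzyme, went the other way. Its values were 48.4 and 41.2 FPKM with DMSO, 42.6 and 40.8 FPKM with 4-OI, 28.2 and 20.5 FPKM with hemin, and 18.4 and 19.1 FPKM with both. All 4 hemin-treated libraries were below the other 4. The DMSO and 4-OI libraries overlapped, and the hemin libraries lay above those with both compounds by a small gap. Its rank in the library dropped from between 1522 and 1837 without hemin to between 2772 and 4291 with it.

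Hmox2 fell by 0.87 on the log2 scale with hemin against DMSO (standard error 0.15, interval -1.21 to -0.52, adjusted p = 0.00145), or 1.82-fold. Against 4-OI the libraries with both compounds fell by 1.11 ± 0.15 (adjusted p = 0.000476), or 2.16-fold. Summed neuron markers, given above, were also lower in the same 4 libraries, and 7 of 10 fell with hemin against DMSO, where 22.6% of all genes did. Among these 4 libraries the order was the reverse at both ends. Hmox2 was highest in the first hemin library (28.2 FPKM), where the neuron sum was lowest (657.3). It was lowest in the first library with both compounds (18.4 FPKM), where the sum was highest (902.4). In a mouse annotation of a later build (GENCODE M21), 892 of the 2217 exonic bases of Hmox2 overlap exons of Cdip1 on the opposite strand, and the sources do not state whether the counting used strand. Cdip1 itself measured 22.2 to 25.3 FPKM in the 8 libraries, and its difference with hemin against DMSO was -0.10 (adjusted p = 0.366).

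Blvra (Entrez gene 109778) had the smallest difference of the 4. It measured 6.85 and 6.80 FPKM with DMSO, 5.72 and 7.55 FPKM with 4-OI, 13.3 and 8.08 FPKM with hemin, and 10.4 and 9.98 FPKM with both. Every hemin-treated library was above every other, but the second hemin library exceeded the highest without hemin only narrowly. The libraries of hemin and of hemin plus 4-OI overlapped, as did those of DMSO and 4-OI. The difference for hemin against DMSO was 0.54 ± 0.22 (interval 0.048 to 1.04) and missed the threshold at an adjusted p of 0.0561. That for hemin plus 4-OI against 4-OI was 0.56 ± 0.22 (interval 0.065 to 1.06) and also missed it, at 0.0533.

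The Blvra call turned on single libraries and on how the spread was pooled. Without the second hemin library the difference from DMSO was 0.87 (adjusted p = 0.00106), and without the first it was 0.21 (adjusted p = 0.240). In a fit of the 4-OI and hemin plus 4-OI libraries alone, the same difference of 0.56 had an adjusted p of 0.00663. It also passed when either hemin library, neither of which enters the difference, was left out of the pooled spread (adjusted p = 0.00371 without the first and 0.00359 without the second). Median-of-ratios scaling gave 0.34 and quantile normalization 0.35 for hemin against DMSO. The median of all genes tested was itself 0.19 in that comparison on the FPKM scale and -0.015 and -0.013 under those scalings.

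Blvrb (Entrez gene 233016), the flavin reductase, started at the level of Blvra and ended well above it. It measured 6.18 and 7.08 FPKM with DMSO, 5.41 and 5.14 FPKM with 4-OI, 52.7 and 24.8 FPKM with hemin, and 36.8 and 31.4 FPKM with both. All 4 hemin-treated libraries were well above the others. The 2 hemin libraries lay on either side of those with both compounds, and the 4-OI libraries were just below those of DMSO. Blvrb moved from ranks 7756 to 9021 without hemin to ranks 1353 to 3139 with it.

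Blvrb rose by 2.29 ± 0.29 (interval 1.63 to 2.95) with hemin against DMSO, or 4.89-fold (adjusted p = 0.0003), the 128th largest rise. With hemin plus 4-OI against 4-OI it rose by 2.48 ± 0.29, or 5.58-fold (adjusted p = 0.000222), the 92nd largest. In turn leaving out each library gave 1.76 to 2.82 and 2.37 to 2.59.

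Across the table hemin called many genes, and the counts of members are to be read against that. With hemin against DMSO, 2 of the 4 rose where 38.7% of genes tested did, and 1 of 4 fell where 22.6% did, so that 3 of 4 passed beside 61.3% of all genes. The split over all genes depended on the scaling, at 5321 higher and 3110 lower on the deposited FPKM scale, 4204 and 4405 under median-of-ratios scaling, and 3642 and 4037 under quantile normalization. With hemin plus 4-OI against 4-OI, 2 of 4 again rose (33.3% of all genes) and 1 of 4 fell (24.2%), 3 of 4 beside 57.5%. The 3 members were Hmox1, Blvrb and Hmox2 in both comparisons, and each kept its direction and stayed past the threshold in all 17 alternative settings. Groups that did not overlap were common too, with all 4 hemin-treated libraries above the other 4 for 40.8% of genes and below them for 26.7%.

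**Figure D2:**
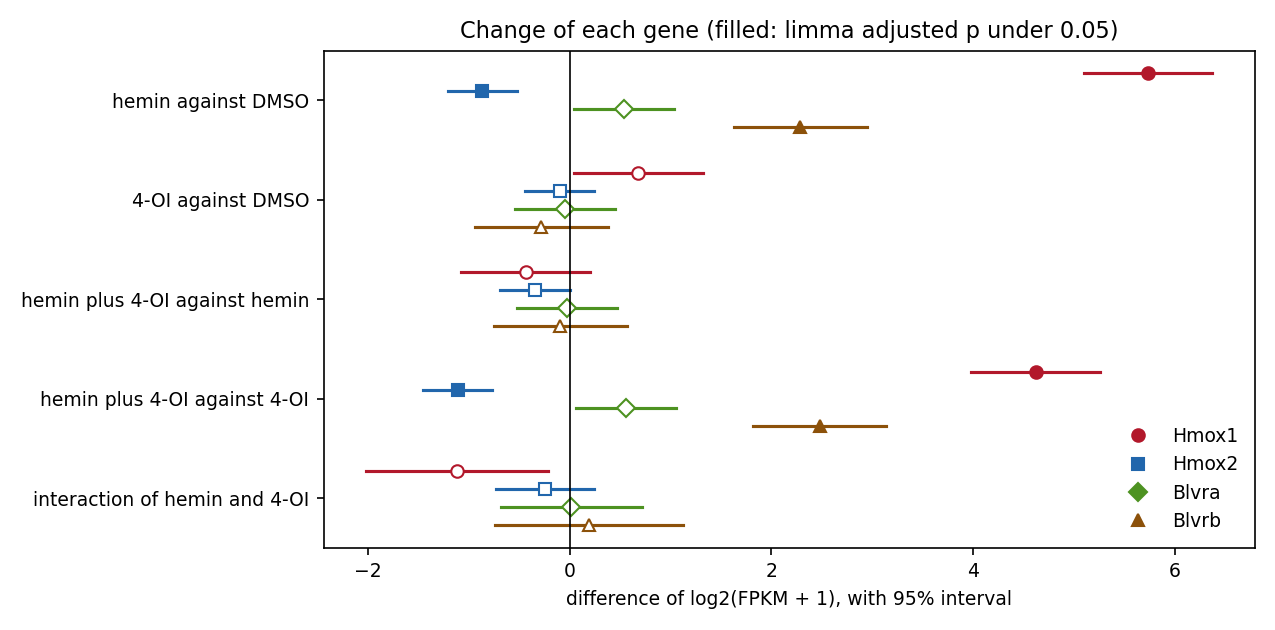
Differences of log2(FPKM + 1) for the 4 genes in the 5 comparisons, with 95% intervals from limma; filled symbols have an adjusted p under 0.05. The filled symbols are Hmox1, Hmox2 and Blvrb in the 2 comparisons that add hemin, with Hmox1 at 5.74 and 4.62, while every symbol in the comparisons that add 4-OI and in the interaction is open.

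Because FPKM is scaled by transcript length, the levels of the genes can be set beside each other. Hmox2 was the larger heme oxygenase transcript without hemin: Hmox1 made up 28.0% and 32.7% of the summed Hmox1 and Hmox2 FPKM with DMSO and 40.2% and 46.3% with 4-OI. With hemin the share of Hmox1 was 98.2% and 97.4%, and with both compounds 97.8% and 97.7%. Hmox1 therefore went from 0.389 to 0.861 times Hmox2 to between 36.9 and 55.4 times. The mean share was 97.8% ± 0.359 (SD, n = 4) with hemin and 36.8% ± 8.08 (SD, n = 4) without, a difference of 60.97 percentage points. Each side pools libraries with and without 4-OI, so the SD includes the difference between those treatments. An exact permutation test (two-sided) gave p = 0.0286, the smallest that 4 against 4 libraries can give. Hmox1 was higher and Hmox2 lower in every hemin-treated library, so this p was fixed by those values and adds nothing to them.

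The reductases shifted likewise from parity to an excess of Blvrb. Blvrb was 0.681 to 1.04 times Blvra in the 4 libraries without hemin and 3.07 to 3.96 times in the 4 with it, on the FPKM scale. Its share of the summed reductase FPKM was 40.5% to 51.0% without hemin and 75.4% to 79.8% with it. The mean log2 ratio of Blvrb + 1 to Blvra + 1 was 1.68 ± 0.18 (SD, n = 4) with hemin and -0.16 ± 0.23 (SD, n = 4) without (exact permutation test, two-sided, p = 0.0286). Here too each side pools libraries with and without 4-OI. The 2 promoter windows printed above belong to a gene whose difference missed the threshold, Blvra, and to a gene that rose, Blvrb. They were chosen for that contrast, and a link between motifs and response was not tested.

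**Figure D3:**
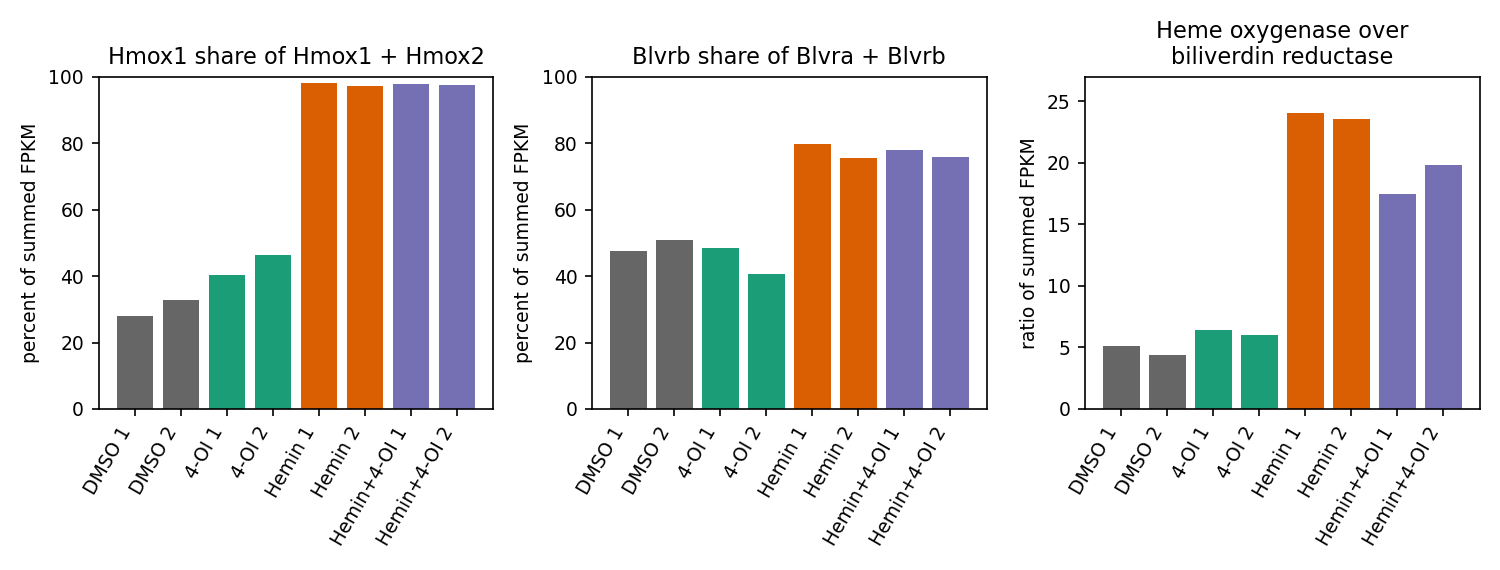
Hmox1 as a percentage of summed Hmox1 and Hmox2 FPKM (left), Blvrb as a percentage of summed Blvra and Blvrb FPKM (middle) and the ratio of summed heme oxygenase to summed reductase FPKM (right), 1 bar per library, coloured by group. All 4 hemin-treated libraries reach 97.4% or more on the left, 75.4% or more in the middle and a ratio of 17.5 or more on the right.

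The sum of both heme oxygenases was 61.2 to 75.9 FPKM without hemin and 775.8 to 1592 FPKM with it. The sum of both reductases was 11.1 to 13.9 FPKM and 32.9 to 66.1 FPKM. Their ratio, chosen after the values were seen, was 5.16 and 4.41 in the DMSO libraries, 6.40 and 5.98 in those of 4-OI, 24.1 and 23.6 under hemin, and 17.5 and 19.9 under both compounds. Oxygenase transcripts thus outnumbered reductase transcripts per length in all 8 libraries, by the widest margin with hemin alone.

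The first hemin library exceeded the second for all 4 genes. The ratio was 2.07 for Hmox1, 2.13 for Blvrb, 1.65 for Blvra and 1.38 for Hmox2. These ratios are not adjusted for the FPKM summed over all entries, which was 429474 in the first hemin library and 377465 in the second. On the log2 scale the differences of Hmox1 and Blvrb between these libraries, 1.05 and 1.06, were above those of 97.4% and 97.5% of genes tested, whose median was 0.023. Blvra stood above 90.0% of genes and Hmox2 above 81.7%. Astrocyte and microglia marker sums, given above, were likewise higher in the first hemin library, and neuron and endothelial sums lower. In the other 3 groups the higher library was at most 1.32 times the lower for any of the 4 genes. The ratio of oxygenases to reductases, unlike either sum, was nearly the same in the 2 hemin libraries.

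With 4-OI alone, no member passed the test. The largest difference was that of Hmox1, at 0.68 ± 0.28 (interval 0.043 to 1.32), the 33rd highest of the genes tested, and both 4-OI libraries were above both DMSO libraries. Its unadjusted limma p was 0.0392 and its adjusted p 1, and 0% of the 13746 genes (none in either direction) passed, with 179 at an unadjusted p under 0.05. The differences of Hmox2, -0.10 (interval -0.44 to 0.25), Blvra, -0.046 (interval -0.54 to 0.45), and Blvrb, -0.28 (interval -0.94 to 0.38), all had intervals that included 0. For Blvrb both 4-OI libraries were below both DMSO libraries. The pooled spread behind these tests includes the hemin libraries. In a fit of the DMSO and 4-OI libraries alone, the Hmox1 difference of 0.68 had a standard error of 0.11. Its unadjusted limma p there was 0.00167, and it still missed the threshold (adjusted p = 0.85).

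Under hemin, the difference made by 4-OI depended on which hemin library it was measured against. For hemin plus 4-OI against hemin, the differences were -0.43 ± 0.28 for Hmox1 (interval -1.07 to 0.21), -0.34 ± 0.15 for Hmox2 (-0.69 to 0.0016), -0.029 ± 0.22 for Blvra (-0.52 to 0.47) and -0.090 ± 0.29 for Blvrb (-0.75 to 0.57). Adjusted p-values were 0.556 to 0.975, and 0% of all genes passed (limma, 1209 at an unadjusted p under 0.05). Against the first hemin library alone, the difference was -0.96 for Hmox1 (adjusted p = 0.00122), -0.56 for Hmox2 (0.00529), -0.36 for Blvra (0.104) and -0.62 for Blvrb (0.00838). Against the second alone it was 0.091 for Hmox1 (0.727), -0.12 for Hmox2 (0.605), 0.30 for Blvra (0.407) and 0.44 for Blvrb (0.195). Hmox1, Blvra and Blvrb thus changed sign with the hemin library kept, and the single library is assumed in these fits to vary like the other groups.

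**Figure D4:**
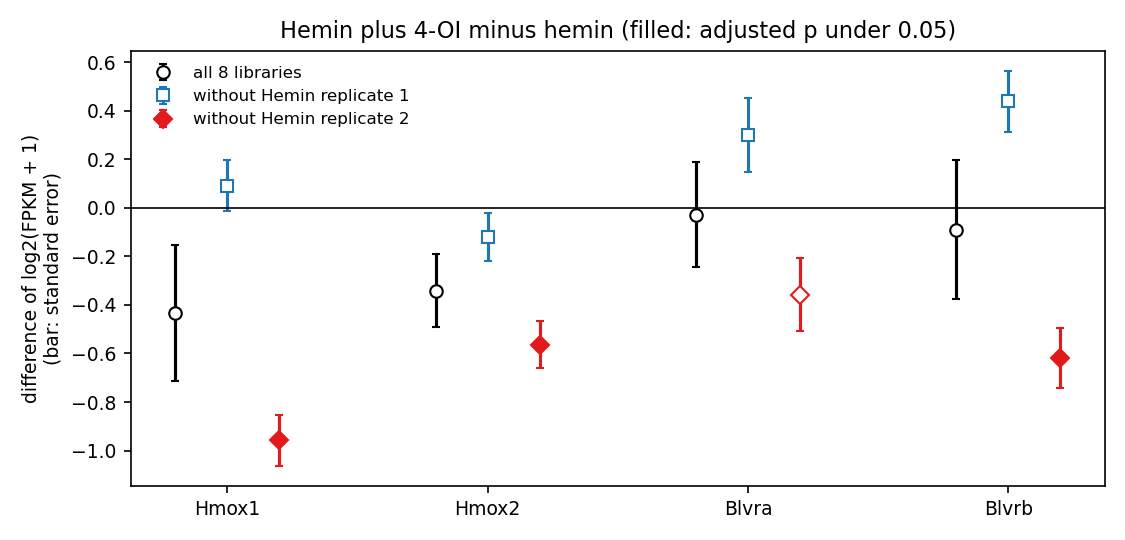
Difference of log2(FPKM + 1) for hemin plus 4-OI minus hemin for each of the 4 genes, with standard errors, with all 8 libraries (circles), without the first hemin library (squares) and without the second (diamonds); filled symbols have a limma adjusted p under 0.05. Without the first hemin library Hmox1, Blvra and Blvrb lie above 0, and without the second all 4 genes lie below it, from -0.96 for Hmox1 to -0.36 for Blvra.

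The interaction asks whether the difference made by 4-OI under hemin was unlike that made without it. For Hmox1 it was -1.11 ± 0.39 (interval -2.02 to -0.21), with an unadjusted limma p of 0.0214 and an adjusted p of 0.854. Here too 0% of genes passed, with 689 at an unadjusted p under 0.05. Without the second hemin library the Hmox1 value was -1.64 (adjusted p = 0.000976), and without the first it was -0.59 (adjusted p = 0.184). The values of Hmox2, -0.24 ± 0.21, Blvra, 0.017 ± 0.31, and Blvrb, 0.19 ± 0.41, had adjusted p-values of 0.854 to 0.995. For Hmox2 the value without the second hemin library was -0.47 (adjusted p = 0.0405).

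Genes that act around these enzymes were counted by list. Among partners and turnover factors of heme oxygenase, 2 of 4 tested rose and 0 fell with hemin against DMSO, with a median of 0.29 beside 0.19 over all genes, but under median-of-ratios scaling 0 rose and 1 fell. The 2 of 4 that rose are near the 38.7% of all genes. Por, the cytochrome P450 reductase that supplies electrons to heme oxygenase, was at 36.9 and 38.9 FPKM with DMSO and 59.7 and 48.8 FPKM with hemin and rose by 0.50 ± 0.11 (adjusted p = 0.0044). With median-of-ratios scaling its difference was 0.27 and missed the threshold (adjusted p = 0.0504). Pgrmc1, a heme-binding membrane protein, rose by 0.24 ± 0.089 (adjusted p = 0.0403), a call lost under all 3 other scalings. Rnf139, a ubiquitin ligase of the endoplasmic reticulum, differed by -0.70 ± 0.32 (adjusted p = 0.0896), and Cyb5r3, a cytochrome b5 reductase, by 0.33 ± 0.21 (adjusted p = 0.194). Rnf139 passed at -1.06 without the first hemin library (adjusted p = 0.0181), at -0.85 under median-of-ratios scaling (0.0408) and at -1.24 under quantile normalization (0.0141), and without the second Cyb5r3 passed at 0.72 (adjusted p = 7.47e-05).

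Of 10 regulators of Hmox1 transcription, 5 rose and 1 fell with hemin against DMSO (median 0.55), beside 38.7% and 22.6% of all genes. Without the first hemin library 8 rose and 2 fell, where 5610 of the 13746 genes rose and 3700 fell. Nfe2l2, which encodes NRF2, measured 7.87 and 8.0 FPKM with DMSO, 8.43 and 7.32 FPKM with 4-OI, 39.6 and 24.2 FPKM with hemin, and 22.6 and 19.8 FPKM with both. It rose by 1.84 ± 0.21 with hemin against DMSO (adjusted p = 0.000184) and by 1.32 ± 0.21 with both against 4-OI (adjusted p = 0.00097). The small MAF genes Maff and Mafk, whose products pair with NRF2 or BACH1, rose by 3.44 ± 0.16 (adjusted p = 8.91e-06) and 1.77 ± 0.16 (adjusted p = 7.7e-05).

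Bach1 encodes the repressor of Hmox1. It measured 11.4 and 10.7 FPKM with DMSO, 11.3 and 12.3 FPKM with 4-OI, 13.8 and 26.3 FPKM with hemin, and 24.8 and 23.0 FPKM with both. The first hemin library, highest for Hmox1, was the lowest hemin-treated library for Bach1. It was also the lowest for Bach2, Cul3, Mafk and Maff of the same list. Among hemin-treated libraries it was the highest for Nfe2l2, Keap1, Hsf1 and Nr1d1, and Mafg lay between. The rise of Bach1, 0.74 ± 0.24 with hemin against DMSO (adjusted p = 0.0265), did not pass under the 3 other scalings. The difference was 1.18 without the first hemin library and 0.30 without the second, both past the threshold (adjusted p = 2.19e-05 and 0.0273), while that with both compounds against 4-OI was 0.96 ± 0.24 (adjusted p = 0.00939). Nr1d1, a heme-binding nuclear receptor of the circadian clock, fell by 0.90 on the log2 scale (adjusted p = 0.000626).

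Among heme carriers and transporters, 7 of 10 tested rose and 1 fell with hemin against DMSO (median 0.94), beside 38.7% and 22.6% of all genes. With both compounds against 4-OI 5 rose and 2 fell, beside 33.3% and 24.2%. Hpx, the plasma heme carrier hemopexin, was at 0.07 and 0.00 FPKM with DMSO and 2.84 and 4.17 FPKM with hemin and rose by 2.11 ± 0.20 (adjusted p = 8.11e-05). Abcg2, an efflux pump that can carry porphyrins, rose by 1.28 ± 0.14 (adjusted p = 0.000168), and the heme-binding Hebp1 by 1.59 ± 0.30 (adjusted p = 0.00209). Hp, which encodes the hemoglobin carrier haptoglobin, rose by 1.00 ± 0.17 (adjusted p = 0.00132) from at most 0.15 FPKM with DMSO. Under quantile normalization its difference was 0.42 (adjusted p = 0.0695). Hpx, Hp and Hebp2 reached 1 FPKM only in hemin-treated libraries, with at most 0.23, 0.18 and 0.92 FPKM without hemin. They passed the filter on low values only through those libraries, so their rises and the counts that include them are partly fixed by the filter.

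Of 6 genes that handle iron released from heme, 4 rose and 0 fell in both hemin comparisons, where 38.7% and 33.3% of all genes rose. The medians were 0.83 and 0.56, beside 0.19 and 0.13 over all genes. The ferritin chain genes Fth1 and Ftl1 each rose by 1.44, with standard errors of 0.24 and 0.25 (adjusted p = 0.00124 and 0.0014). Slc40a1, the iron exporter ferroportin, went from 1.18 and 0.91 FPKM with DMSO to 17.9 and 8.26 FPKM with hemin, a rise of 2.70 ± 0.31 (adjusted p = 0.000212). Pcbp1, an iron chaperone, rose by 0.23 ± 0.087 (adjusted p = 0.049), and under median-of-ratios scaling its difference was -0.0026.

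Of 4 genes tested that handle bilirubin or sense carbon monoxide, 2 rose and 2 fell with hemin against DMSO, beside 38.7% and 22.6% of all genes. Gucy1a3 and Gucy1b3 encode the subunits of soluble guanylate cyclase, the heme-containing receptor of nitric oxide that carbon monoxide can also bind. Gucy1a3 went from 38.9 and 37.9 FPKM with DMSO to 6.33 and 7.63 FPKM with hemin, and fell by 2.31 on the log2 scale (standard error 0.13, adjusted p = 1.71e-05). Gucy1b3 fell by 0.93 on that scale (adjusted p = 0.000222). The efflux pumps Abcc1 and Abcc3 rose by 1.17 ± 0.16 (adjusted p = 0.000407) and 1.08 ± 0.31 (adjusted p = 0.0151). Abcc3 was at most 0.90 FPKM without hemin and passed the filter only through hemin-treated libraries, so its rise is partly fixed by the filter. Without the first hemin library the difference of Abcc3 was 0.62 (adjusted p = 0.0511) and 1 of the 4 genes rose, and under quantile normalization that of Abcc3 was 0.46 (adjusted p = 0.238). Ugt1a1, which conjugates bilirubin in liver, was below the filter on low values. In the 3 comparisons other than the addition of hemin, 0 genes of these 5 lists passed.

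**Figure D5:**
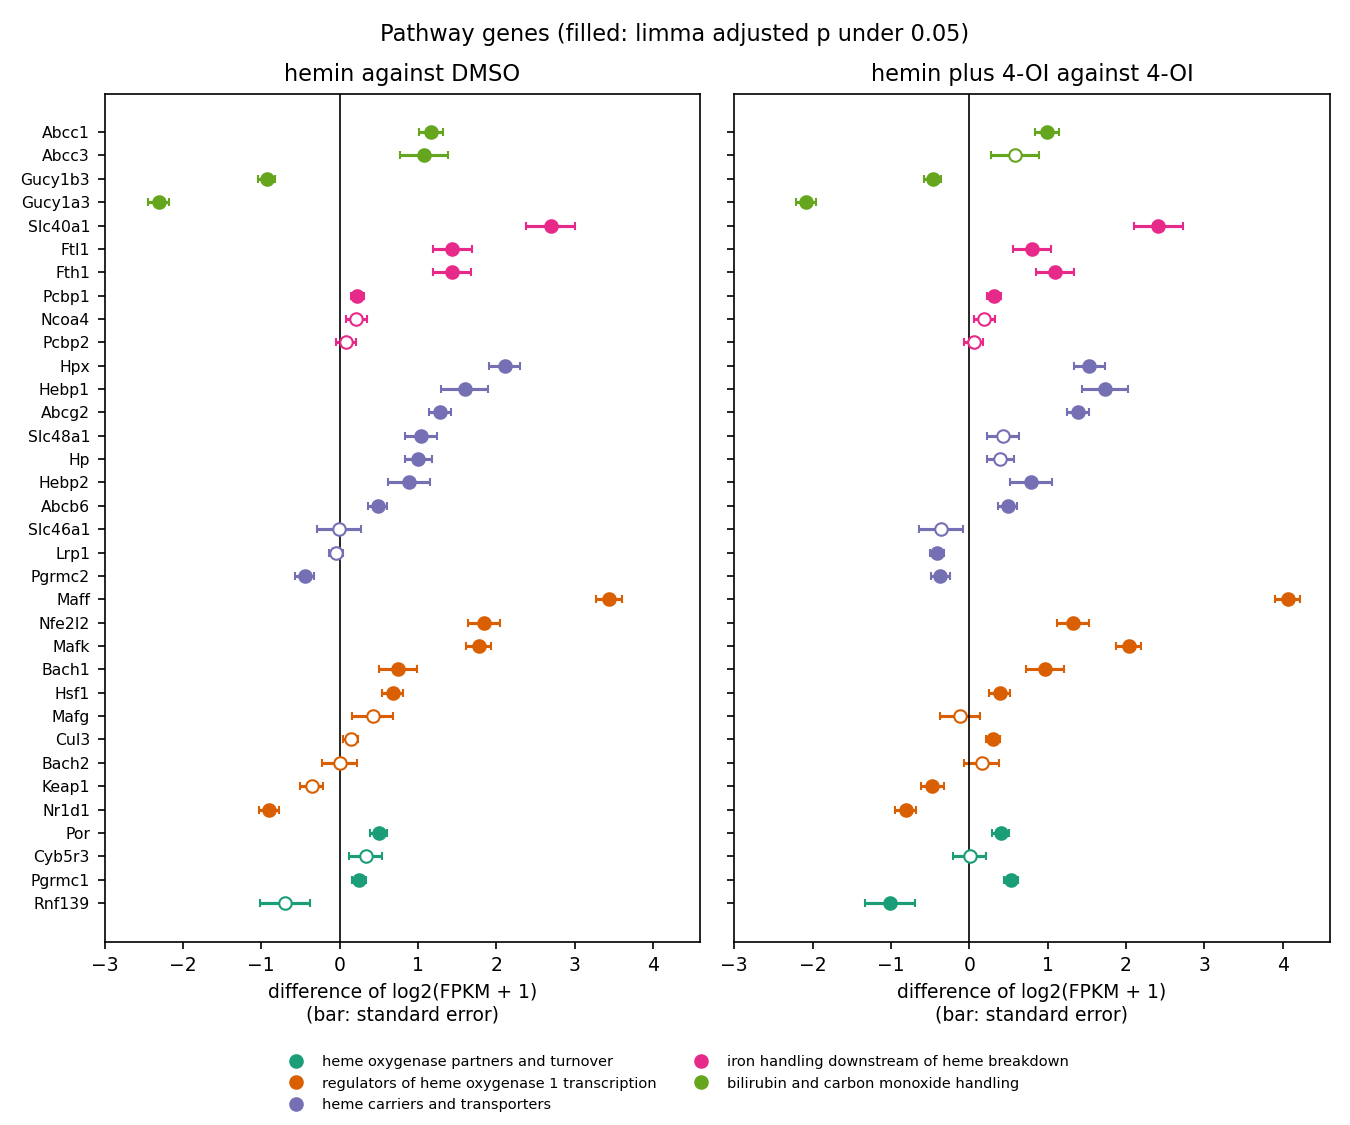
Differences of log2(FPKM + 1), with standard errors, for the tested genes of the 5 lists in hemin against DMSO (left) and in hemin plus 4-OI against 4-OI (right), coloured by list; filled symbols have an adjusted p under 0.05. Maff lies farthest to the right, at 3.44 and 4.06, and Gucy1a3 farthest to the left, at -2.31 and -2.08, in both panels.

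Genes with the profile most like each member were sought by Pearson correlation of log2(FPKM + 1) over the 8 libraries, among 9229 genes. The libraries share their groups, so these values describe likeness across the same 4 treatments. For Hmox1 they included Myh9 (r = 0.999), Actn4 (0.999) and Tmem123 (0.998), all of which moved over a much narrower range: Myh9 ran from 8.08 to 29.8 FPKM. For Hmox2 they were Ash2l (0.997), Gga1 (0.995), H1fx (0.994) and Decr2 (0.994). For Blvra they were Hsd17b4 (0.990), Ipo5 (0.984), Rbm10 (0.984) and Ctgf (0.980), and for Blvrb Tmem208 (0.997), Hat1 (0.997), Ccl2 (0.996) and Rpl32 (0.996). Among the members themselves, r was 0.976 for Hmox1 with Blvrb, 0.913 for Blvra with Blvrb, 0.872 for Hmox1 with Blvra and -0.903 for Hmox1 with Hmox2.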

How the data were processed

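RNA was sequenced from mouse primary cortical neuron cultures in 4 groups of 2 libraries. The authors deposited 1 table of FPKM values, and per the submitters' processing notes it was made with Bowtie2 and RSEM on mm8 (versions and annotation not given in the sources used here). Of its entries 34.1% list transcripts beyond the annotation, among them Blvra and Blvrb.

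Values were tested as log2(FPKM + 1) with limma 3.58.1 in R 4.3.3: a mean per group over all 8 libraries, an intensity trend, two-sided, Benjamini-Hochberg adjustment over the 13746 genes with FPKM of at least 1 in at least 2 libraries, threshold 0.05. All 4 members passed this filter. Fold changes are on the FPKM + 1 scale and understate changes of low genes. Single values were compared by exact permutation tests (scipy 1.17.1). The fit was tested on simulated data in which each gene had the same spread in every group. That simulation leaves out the wider spread of the hemin libraries and cannot speak to it. Depth was estimated from steps between low FPKM values of single-transcript genes, of which 75.3% to 82.0% came within 0.15 of a whole fragment. It entered no test, and counting errors cover counting only.

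Named genes were the members, up to 4 genes of lowest p per pathway list under hemin against DMSO, Bach1, Nfe2l2, Por, Fth1 and Ftl1, and the 4 most similar genes per member with a mean FPKM of at least 5, of which 1 is not reported here. Of the lists, Hm13, Flvcr1 and Flvcr2 were not matched. Cdip1 was named for its overlap, and Tmem119, P2ry12, Hbb-b1 and Alas2 after their values were seen. Members and lists were chosen with earlier results of these data known. Alternatives were another pseudocount, other filters, 3 scalings, a replicate block, other fits and leaving out libraries; those for the lists were added after seeing the data.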

Additional observations from a re-analysis of the deposited data

How the results depend on the processing

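For hemin against DMSO and for both compounds against 4-OI, Hmox1, Hmox2 and Blvrb kept direction and threshold in all settings run. The replicate numbers did not pair the libraries (correlations of deviations -0.0903 to 0.0518 between groups). With the replicate block, hemin against DMSO gave 5.74 for Hmox1 (limma adjusted p = 3.56e-05), -0.87 for Hmox2, 0.54 for Blvra (0.0701) and 2.29 for Blvrb, and the block changed no member's call.

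For both compounds against 4-OI, Blvra passed in the fit of only the groups compared (0.56) and without either hemin library, and for both compounds against hemin its difference was 0.0064 as TPM, 0.014 under median-of-ratios and 0.031 under quantile scaling. Genes called lower numbered 2 for both compounds against hemin without the filter, 2 without the trend, and 2 for the interaction without the filter. The Hmox1 share differed by 67.5 points in DMSO and hemin alone and 54.5 in the 4-OI groups alone, and the Blvrb to Blvra ratio by 1.75 and 1.92, where the exact permutation p cannot go below 0.333.

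Leaving out 1 library gave, for hemin against DMSO, 0.21 to 0.87 for Blvra, and 0.39 to 0.73 for Blvra with both against 4-OI. For 4-OI against DMSO it gave -0.21 to 0.015 for Hmox2 and -0.22 to 0.13 for Blvra. For both against hemin it gave -0.96 to 0.091 for Hmox1, -0.56 to -0.12 for Hmox2, -0.36 to 0.30 for Blvra and -0.62 to 0.44 for Blvrb. For the interaction it gave -1.64 to -0.59, -0.47 to -0.023, -0.31 to 0.35 and -0.34 to 0.72 in the same order. Counts of genes called ran from 0 to 2 higher for 4-OI against DMSO, 0 to 1872 higher and 0 to 2599 lower for both against hemin, and 0 to 989 higher and 0 to 1579 lower for the interaction. The share ran from 58.0 to 64.1 and the ratio from 1.73 to 1.90, with an exact permutation p of 0.0571, the smallest possible.

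Settings added after seeing the data turned Cyb5r3 for both against 4-OI to -0.11 (TPM) and -0.15 (median-of-ratios), Pcbp1 for hemin to -0.0026 (median-of-ratios), Hp for both against 4-OI to -0.15 (quantile), and Cyb5r3 for hemin to -0.051 without the first hemin library. The causes were not tested. The fit of only the groups compared was not run for the interaction, which needs all 4. Depth limits Blvra and Blvrb most, at an estimated 32 to 75 fragments per library without hemin.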
